A study of Mus musculus with 2 samples.

Results

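A total of 5936 crosslinked nucleotides of Tia1 lay in 5′ untranslated regions (5′UTRs) of mouse mRNAs, out of 422150 nucleotides called at a low false discovery rate (FDR) when the cDNAs of both replicates were summed. A nucleotide was included when it fell, on its own strand, in the 5′UTR of a protein-coding transcript of the GENCODE annotation of GRCm38 and in no coding sequence (CDS) or 3′UTR of any transcript, and it was weighted by its unique cDNAs, 12504 in all. The cDNAs came from individual-nucleotide resolution crosslinking and immunoprecipitation (iCLIP), in which UV light joins a protein to the RNA it touches and the cDNA made from the recovered RNA ends next to the joined nucleotide. The samples were 2 replicates of 1 group: cytoplasm of primary splenic B cells of the C57BL/6 strain, purified with a B cell isolation kit and treated with lipopolysaccharide (LPS, 10 µg/ml) for 48 h, with no other allele or agent named in the labels. There was no untreated or control-antibody sample among those analysed here, so the background of the method was not measured, no test between conditions could be made, and the values below describe this group. The titles name Tia1, the antibody entry names a goat antibody against its relative Tial1, and the study's methods name an antibody specific for Tia1. Labels and methods also differ in UV dose and RNase concentration, and these differences were not settled here.

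The 5′UTR is the stretch between the cap and the start codon that the small ribosomal subunit scans before translation begins, and its length, structure, upstream reading frames and bound proteins influence how often an mRNA is translated. Tia1 is an RNA-binding protein with a known preference for uridine-rich RNA and is a component of stress granules, cytoplasmic assemblies of mRNAs that are not being translated. In mRNAs with a terminal oligopyrimidine (TOP) start, which encode ribosomal proteins and translation factors, Tia1 and Tial1 have been linked to translational control through the 5′ end.

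Sequences from genes with strong 5′UTR sites are given first, so that the base composition can be read beside the counts. Each is a 29-nt window of GRCm38 in the sense of the transcript, written as DNA from 5′ to 3′, with the strongest nucleotide of that gene's 5′UTR at its centre. Capitals mark the nucleotides that were low-FDR sites in both replicates. The windows can pass the edges of the 5′UTR. Those of Hist1h2bg and Hist1h1c begin upstream of the annotated transcript start, and that of Hist1h2bb runs into the coding sequence. The genomic position and strand follow the gene name.
Pabpc1, chr15:36608800-36608828, minus strand: cccgccggaGaCTTTTATTTtTtttcTTC
Hist1h2bg, chr13:23571388-23571416, plus strand: aTCTcaTTTCCtGTTTTaTCTTTCTCTTt
Hist1h2bb, chr13:23746771-23746799, plus strand: TTTgtgtgtcTTctTTtgaacagaatgcc
Hist1h1c, chr13:23738800-23738828, plus strand: ctactctatcggcgTactGccactagtTc
Grcc10, chr6:124741256-124741284, minus strand: gtgttacagctcTTTTaGaaTTTgTcTag
Tubb5, chr17:35838102-35838130, minus strand: caaaaacCTTAaTTTTcTTTCTtgttcgg
Mbnl1, chr3:60529553-60529581, plus strand: tTTTTTtTTTTTTTTTTTTTGgagagggg
BC005537, chr13:24802855-24802883, plus strand: gggggggGTATTTTTTTTTTccctgtatt
Ptp4a2, chr4:129839148-129839176, plus strand: gGCTTTtTTTTTTTTTaaaTTgcaagcgt
Scd2, chr19:44294178-44294206, plus strand: agccagtTTTTgatTTTTTatctggtcat
Cd22, chr7:30880210-30880238, minus strand: caggtaaaaccatTTCaaTCTTTtctcTt

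In these windows the nucleotides called in both replicates were mostly uridines, in some windows in runs broken by single cytidines. The longest uridine run was 20 nt in Mbnl1, 13 nt in Ptp4a2, 10 nt in BC005537, 8 nt in Pabpc1, and 4 nt in Hist1h2bg, Hist1h2bb, Grcc10, Tubb5 and Cd22. Hist1h1c was the least uridine-rich, with 9 uridines in its window and a longest run of 2 nt. In its window 3 nucleotides were called in both replicates, against 23 in the window of Hist1h2bg. Some of those 23 lay upstream of the annotated start, and the whole 5′UTR of Hist1h2bg had 21. Leading genes without a printed window included Ptp4a3, Gpbp1 and Ebf1. Their windows held 18, 20 and 11 uridines, with 8, 11 and 1 nucleotides called in both replicates.

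Sites in 5′UTRs took a small and similar share of both libraries. They held 9218 of 632247 cDNAs in replicate 1, or 1.46% (exact Clopper-Pearson 95% interval 1.43 to 1.49), and 2410 of 163577 cDNAs in replicate 2, or 1.47% (1.42 to 1.53), which gave 1.47% ± 0.0108 (SD, n = 2). The intervals here and below cover counting error only. For comparison, 3′UTR sites held 79.8% and 82.3% and CDS sites 6.67% and 3.38%, so that the CDS share differed between replicates by more than its intervals and the 5′UTR share did not. Of the 5936 5′UTR sites, 4789 were called in replicate 1, 1305 in replicate 2 and 831 in both, and 673 were called in neither replicate alone. The share called in both was 14% (13.1 to 14.9), beside 13.7% of all low-FDR sites. Of the 5′UTR sites called in replicate 2, 63.7% were also called in replicate 1, beside 64.6% of 3′UTR sites and 53.7% of CDS sites.

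Most 5′UTR sites were thin. A single cDNA supported 64.4% of them, 448 sites had 5 or more, and the strongest had 89. The sites fell in 712 genes with a median of 4 cDNAs and 3 sites per gene. Among genes, 577 had a site in replicate 1, 184 in replicate 2 and 160 in both, 186 genes had at least 10 pooled cDNAs, 46 had at least 50 and 20 had at least 100. The 10 leading genes held 31.6% of the 5′UTR cDNAs. At sites called in only 1 replicate, the pooled count left some cDNAs to the other library below its own calling threshold, and with these counted 227 genes had 5′UTR cDNAs in both replicates.

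Replicate 1 was the deeper library, with 639108 cDNAs at 342732 low-FDR sites against 165081 cDNAs at 93512 sites in replicate 2. Across exonic sites the labelled cell type could be checked against markers. All 11 B cell markers had exonic cDNAs, 10772 in total, whereas 9 T cell markers had 4, 8 myeloid markers 44 and 6 erythroid markers 28. None of these other genes had a 5′UTR site, but only 1 T cell, 3 myeloid and 1 erythroid marker had an exonic site. Of all protein-coding genes with an exonic site 8.96% had a 5′UTR site, so that absence says little. Of the T cell markers 8 were at 0, Cd3e being the exception, and of the erythroid markers 5 were at 0, with all 28 cDNAs on the globin gene Hbb-bt. No RNA level was measured beside the crosslinking, so a gene with more RNA and a gene with more crosslinks per RNA cannot be told apart, nor can fewer cells and less RNA per cell.

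Genes with the most 5′UTR cDNAs encoded RNA-binding proteins, histones, tubulin, phosphatases and B cell proteins. The RNA-binding group was led by Pabpc1, the cytoplasmic poly(A)-binding protein that binds mRNA tails and promotes translation. It had 378 cDNAs in replicate 1 and 249 in replicate 2, at 116 sites of which 49 were called in both. All of its 627 pooled cDNAs lay in a single cluster of 268 nt that began at the transcript start and ended 200 nt before the start codon, at chromosome 15, 36608706 to 36608973. Its strongest nucleotide, 159 nt from the transcript start and 308 nt from the start codon, had 27 cDNAs in replicate 1 and 62 in replicate 2, and its neighbour had 24 and 26. The shallower library was therefore higher at the summit, and 39.7% (35.9 to 43.7) of the Pabpc1 cDNAs assigned to a replicate came from replicate 2, against 20.7% over all 5′UTR sites. Although 76.2% of Pabpc1 cDNAs were at uridines, only 40.5% of its sites were, and 23.3% of its sites were adenosines.

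Mbnl1, a muscleblind regulator of alternative splicing, had 300 and 117 cDNAs in replicates 1 and 2. Its densest cluster ran over the last 78 nt before the start codon with 160 and 84 cDNAs, and a wider stretch of 284 nt further upstream held 91 and 33. Matr3, a nuclear matrix RNA-binding protein, had 113 and 98 cDNAs, 94.4% of the pooled ones between 2 and 86 nt from the start codon, and 46.4% (39.6 to 53.4) of them came from replicate 2. Its sites lie as well in the annotated gene Gm28285 and were counted with it. Hnrnpc, which binds uridine tracts in nuclear RNA, had 18 and 10 cDNAs, and Elavl1, a stabiliser of AU-rich mRNAs also known as HuR, had 8 and 2.

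**Figure D1:**
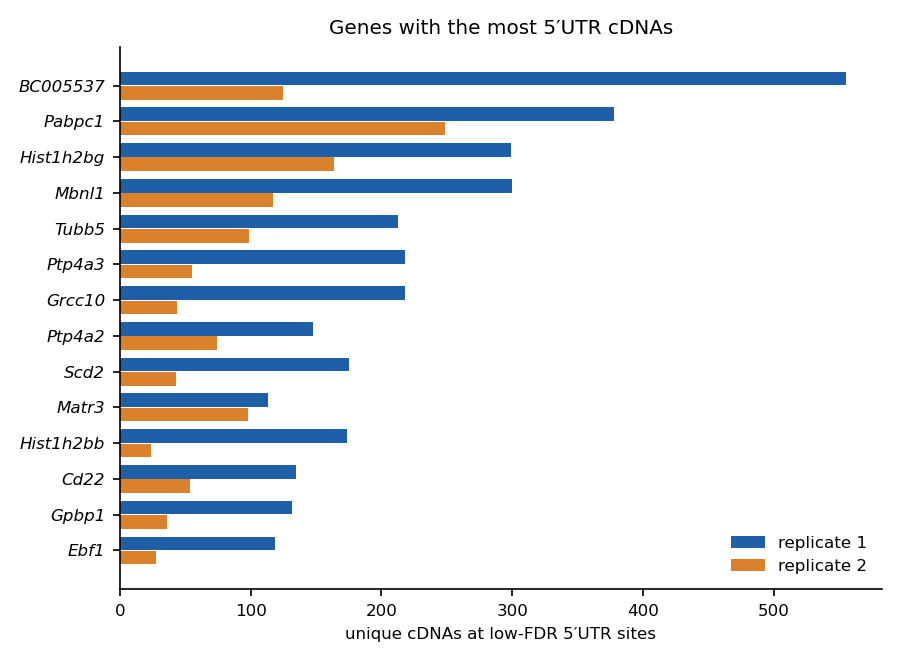
Unique cDNAs at low-FDR 5′UTR sites (horizontal axis) for 14 of the 15 genes with the most pooled 5′UTR cDNAs, with bars for replicate 1 and replicate 2. BC005537 leads in replicate 1 with 555 and Pabpc1 in replicate 2 with 249, and every gene shown has cDNAs in both replicates.

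Other leading genes had compact clusters at different heights of the 5′UTR. Tubb5, a beta-tubulin, had 213 and 99 cDNAs, of which a cluster 8 to 118 nt from the start codon held 98.4%. In Grcc10 all 265 pooled cDNAs, 218 in replicate 1 and 44 in replicate 2, lay within 30 nt, 287 to 316 nt from the start codon, and no cDNA was called in its 3′UTR. Its strongest nucleotide had 49 and 11 cDNAs. BC005537 had the most pooled cDNAs of any gene, 692, with 555 and 125 in the replicates, but spread over a 5′UTR of 1724 nt: its main clusters held 278, 213 and 92 cDNAs, and its strongest nucleotide had 17. The phosphatases of regenerating liver Ptp4a3 and Ptp4a2 had 218 and 55 cDNAs and 148 and 74 cDNAs. In Ptp4a2 a stretch of 37 nt held 80.3% of the cDNAs, whereas in Ptp4a3 clusters of 48 and 63 nt held 120 and 116. Scd2, a stearoyl-CoA desaturase that introduces a double bond into fatty acids, had 175 and 43 cDNAs.

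Among B cell genes, Cd22 had the most 5′UTR cDNAs. It encodes an inhibitory lectin that dampens signals from the B cell receptor, and it had 135 and 54 cDNAs, of which 90.1% lay between 43 and 144 nt from the transcript start. Ebf1, a transcription factor that specifies the B lineage, had 119 and 28. Bcl2, which blocks apoptosis, had 104 and 22 cDNAs and its strongest nucleotide lay 44 nt from the start codon. Gpbp1, a GC-rich promoter-binding factor also among the leading 15, had 132 and 36 cDNAs scattered over 91 sites with no more than 6 pooled cDNAs at any of them.

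Among the 83 genes with at least 30 cDNAs assigned to a replicate, the interval of the share from replicate 2 lay wholly above the 20.7% of all 5′UTR sites in 11 genes and wholly below it in 13. Pabpc1, Hist1h2bg, Mbnl1, Tubb5, Ptp4a2, Matr3 and Cd22 were among those above. Hist1h2bb was among those below, and Tmsb4x, a thymosin that sequesters actin monomers, had 44 cDNAs in replicate 1 and no called site in replicate 2. These shares count only cDNAs at sites past the threshold of each library. Below that threshold, 3 cDNAs of Tmsb4x were left to replicate 2. Calling in the shallower library and variation between the replicates therefore cannot be told apart here.

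**Figure D2:**
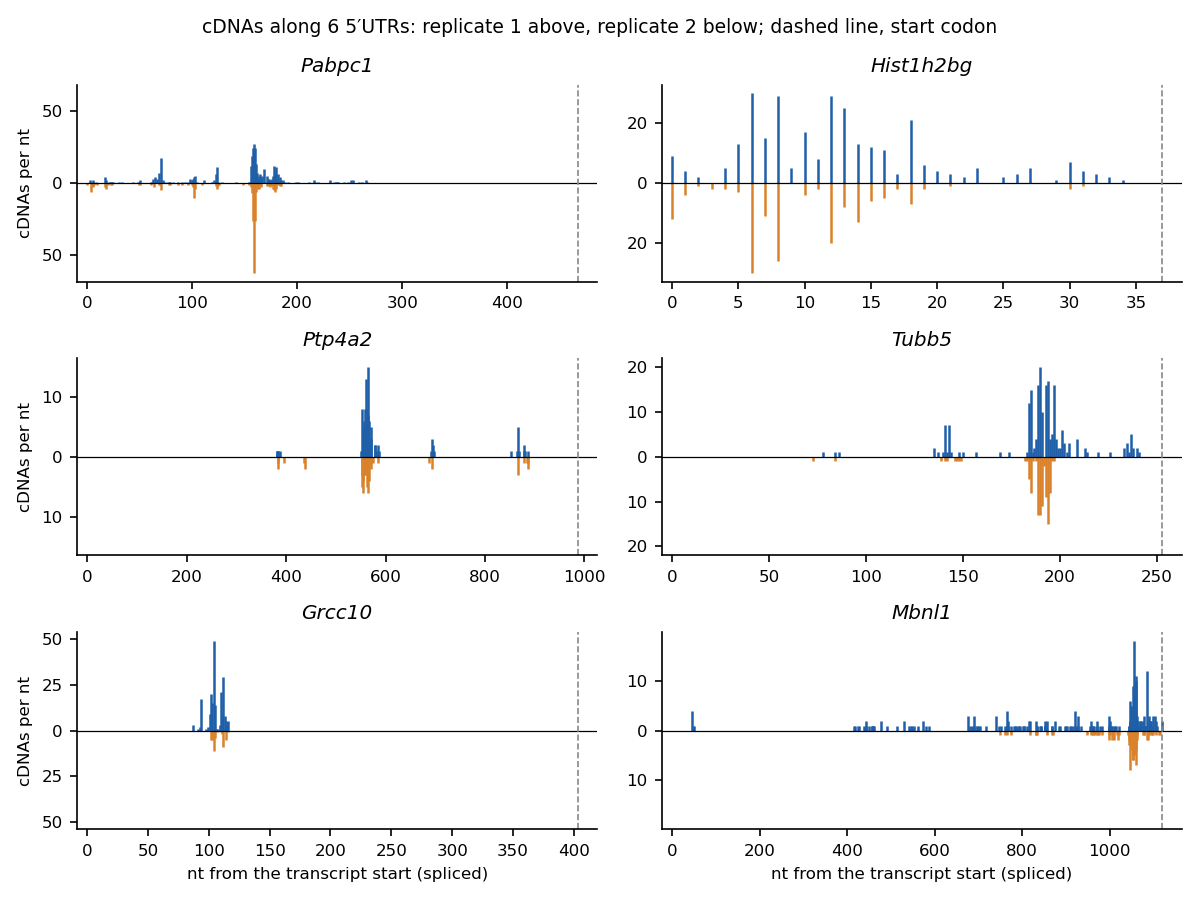
cDNAs per nucleotide along the spliced 5′UTR of 6 genes, with replicate 1 drawn upward, replicate 2 downward and the start codon as a dashed line. Both replicates have their summits in the same stretches, near 159 nt in Pabpc1 and over the first 20 nt of Hist1h2bg, and the Mbnl1 and Tubb5 summits lie towards the start codon.

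Histone genes formed a large group among the genes with 5′UTR sites. Replication-dependent histone mRNAs, made in S phase from short intronless genes, end in a stem-loop in place of a poly(A) tail. Of 67 annotated protein-coding genes with Hist1 to Hist4 symbols, 47 had a low-FDR site in an exon and 31 of these (66.0%) had a 5′UTR site, beside 8.96% of all protein-coding genes with an exonic site. They had sites in both replicates in 20 genes and held 1643 pooled 5′UTR cDNAs, 1241 in replicate 1 and 375 in replicate 2, or 13.1% of all. Their median 5′UTR was 39 nt long. With 5′UTRs this short, 99.4% of their cDNAs lay within 50 nt of the start codon, and 77.1% lay within 50 nt of the transcript start, against 7.44% for all other genes. The same values were 74.8% and 7.05% in replicate 1 and 83.5% and 7.47% in replicate 2.

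By protein, the 5 H2B genes held 737 pooled 5′UTR cDNAs, the 6 H3 genes 303, the 9 H4 genes 242, the 5 linker histone H1 genes 208 and the 6 H2A genes 153. Hist1h2bg alone had 299 and 164 cDNAs in a 5′UTR of 37 nt. Its strongest nucleotide, 6 nt from the transcript start, had 30 cDNAs in each replicate, and a further 62 cDNAs, 49 and 13, fell on 10 sites within 50 nt upstream of the annotated start, which the rule left out. Hist1h2bb had 174 and 24 cDNAs, with its strongest nucleotide 10 nt before the start codon. Hist1h3d and Hist1h3f had 82 and 19 and 90 and 11 cDNAs.

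The histone genes differed in where the protein was crosslinked. Hist1h2bg had 463 pooled cDNAs in its 5′UTR and 6 in its 3′UTR, and Hist1h2bb had 200 and 0. Summed over the H4 genes the order was the other way round, with 2970 cDNAs in the 3′UTRs and 242 in the 5′UTRs, but most of that sum came from Hist1h4d, with 1 cDNA in a 5′UTR of 4 nt and 1831 in its 3′UTR, Hist1h4a, with 33 and 744, and Hist1h4b, with 5 and 273. In 3 of the 9 H4 genes the 5′UTR held more: Hist4h4 had 77 and 15, Hist1h4m 54 and 0 and Hist1h4n 27 and 0. In all, 17 of the 31 genes had more cDNAs in the 5′UTR than in the 3′UTR. Uridine stood at 70.8% (65.8 to 75.4) of the histone 5′UTR sites and at 72.5% (71.3 to 73.6) of the other sites. Genes for the same histone protein are related copies, though their 5′UTRs can differ, as the windows of Hist1h2bg and Hist1h2bb show. How reads matching several of them were handled is unknown here, so the split of cDNAs between such members is uncertain.

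**Figure D3:**
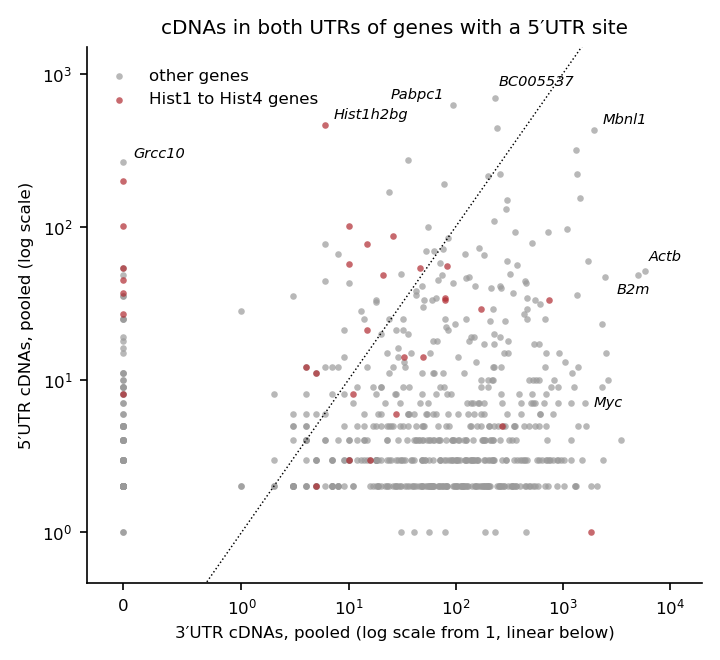
Pooled cDNAs at low-FDR sites in the 3′UTR (horizontal axis) and the 5′UTR (vertical axis) of each gene with a 5′UTR site, on log scales that turn linear below 1, with histone genes in red and equal values on the dotted line. Hist1h2bg and Grcc10 lie far above the line at 463 against 6 and 265 against 0, and Actb and B2m far below it at 51 against 5824 and 48 against 5015.

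Most genes with a 5′UTR site had more crosslinks in their 3′UTR. These are counts not scaled to length: the 5′UTRs with a site had 288751 nt, and the 3′UTRs of the same transcripts 1073833 nt. Of the 712 genes, 611 also had a 3′UTR site and 154 had more cDNAs in the 5′UTR than in the 3′UTR. In the 186 genes with at least 10 pooled 5′UTR cDNAs, the median share of both UTRs' cDNAs that fell in the 5′UTR was 30.3%, and 62 of these genes had more in the 5′UTR. These genes were picked by their 5′UTR cDNAs, with no such limit on the 3′UTR, which raises both values. Pabpc1 had 627 pooled cDNAs in the 5′UTR and 94 in the 3′UTR, and Ptp4a3, Gpbp1 and BC005537 likewise had more in the 5′UTR, at 274 against 36, 169 against 24 and 692 against 232. Mbnl1, Tubb5, Scd2 and Ebf1 had the reverse, with 1970, 1322, 1370 and 1452 cDNAs in the 3′UTR.

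Of 11 genes chosen for their part in the study or in B cell growth, 2 had 5′UTR sites, a number too small to set against the 8.96% over all genes with an exonic site. Ccnd2, a D-type cyclin of the G1 phase, had 27 and 6 cDNAs at 18 5′UTR sites, beside 1042 and 271 in its 3′UTR. Myc, a transcription factor of cell growth, had 5 and 0, beside 1128 and 484. No low-FDR 5′UTR site was called in Trp53, Hif1a, H2-K1, Cdkn1a, Gadd45a, Tia1, Tial1, Dcp1a or Mdm2. Trp53, the tumour suppressor p53, had 286 and 106 cDNAs in its 3′UTR, Hif1a, a hypoxia-responsive transcription factor, had 362 and 71, and Gadd45a, a stress-induced growth arrest gene, had a pooled count of 1. The lists contain only sites past the FDR threshold, so a gene without a called site may still have had crosslinks.

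Among 7932 protein-coding genes with a low-FDR site in an exon, 8.96% had a 5′UTR site, and the counts for groups of genes are read beside that share. Of the ribosomal protein genes with a TOP start, 54 of 79 had an exonic site and 21 of these, or 38.9%, had a 5′UTR site. The cDNA counts were low: 195 pooled over the 21 genes, 155 in replicate 1 and 28 in replicate 2, with sites in both replicates in 5 genes. Rpl10, a protein of the large subunit, had 37 and 10 cDNAs, and the small subunit proteins Rps16, Rps2 and Rps24 had 11 and 8, 13 and 5, and 13 and 0. Of the other translation genes with a TOP start, 8 of 18 with an exonic site had a 5′UTR site, which is 44.4%. Besides Pabpc1 they included Rack1, a scaffold on the small ribosomal subunit, with 28 and 13 cDNAs, Eef1b2, a subunit of the elongation factor exchange complex, with 26 and 4, and Npm1, a nucleolar chaperone of ribosome assembly, with 6 and 0.

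Crosslinks in the TOP mRNAs were not restricted to the annotated transcript start. In the ribosomal protein genes 16.4% of the 195 cDNAs lay within 20 nt of the annotated transcript start and 24.1% within 50 nt, with a median site 81 nt away. In the other translation genes 9.18% of 719 cDNAs lay within 20 nt, and 37.0% of 92 without Pabpc1, with the strongest nucleotides of Rack1 4 nt and of Eef1b2 308 nt from the start. With the start defined as a cytidine followed by 4 pyrimidines, 7 of the 29 genes of these lists with a site had an annotated TOP start, as did 34 of the 712 genes (4.78%) and 496 of 20915 protein-coding genes with a 5′UTR (2.37%). Annotated starts can lie away from the nucleotide used in B cells, which limits this count and the distances above. How far the crosslinks lay from the 5′ end used in these cells was not measured. At ribosomal protein sites uridine stood at 66.3% of nucleotides. Annotated introns of another protein-coding transcript overlapped 47.5% of these sites. For the other translation genes this was 60.1% of sites with Pabpc1 and 0% without it. These genes have many processed copies, so their counts are uncertain.

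Genes with described internal ribosome entry had a 5′UTR site in 6 of 14 with exonic sites (42.9%). Eif4g2, a translation initiation factor that lacks the cap-binding part of eIF4G, had 121 and 28 cDNAs, 70.0% of them between 4 and 86 nt from the start codon, and Cdkn1b, the p27 inhibitor of cyclin-dependent kinases, had 32 and 24. Vegfa, an angiogenic growth factor, had 13 and 4. Upstream open reading frame genes of the stress response had a site in 3 of 16 (18.8%): Eif5, a factor of start codon recognition, had 10 and 4 cDNAs, Atf4, the main transcription factor of the integrated stress response, had 10 and 0, and Azin1, the antizyme inhibitor, had 3 pooled cDNAs and no site in either replicate alone.

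Stress granule genes had 5′UTR sites in 5 of 21 (23.8%). After Pabpc1 came Atxn2l, an ataxin-2 relative, with 41 and 3, while Caprin1 had 5 and 0 and Ubap2l 3 and 0. P-body and decay genes had a site in 3 of 18 (16.7%), none of them in replicate 2, with Cnot7, a deadenylase, at 10, the helicase Ddx6 at 7 and Cnot1, the scaffold of the deadenylase complex, at 3 in replicate 1. Other RNA-binding regulators had sites in 9 of 27 (33.3%).

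B cell identity and receptor genes had a site in 10 of 22 (45.5%), with Pou2af1, a B cell coactivator of octamer factors, at 14 and 0 and Cd74, the invariant chain, at 5 and 0 below Cd22 and Ebf1, so that 2 of the 10 had sites in both replicates. The separate list of B cell markers had a site in 6 of 9, among them Cd79a, a signalling chain of the B cell receptor, with 4 and 0 cDNAs. Both B cell counts take only genes annotated as protein-coding and so leave out the immunoglobulin genes Ighm and Igkc, which had exonic cDNAs. Of actin genes 5 of 15 (33.3%) had a site, namely Actb at 42 and 6, Tmsb4x, the filament severing factor Cfl1 at 18 and 7, the monomer-binding Pfn1 at 22 and 0, and Coro1a. Antigen presentation genes had sites in 3 of 15, where B2m, the light chain of class I molecules, had 42 and 5 and the class II chains H2-Eb1 and H2-Aa had 4 and 0 and 3 and 0. Plasma cell and unfolded protein response genes had sites in 2 of 19 (10.5%), Serp1 at 10 and 0 and the chaperone Hsp90b1 at 2 and 0. NF-kB and LPS signalling genes had 1 of 20, the Toll-like receptor relative Cd180 with 3 pooled cDNAs, and p53 and its targets had 0 of 17. RNA levels and 5′UTR lengths were not matched between the lists and the other genes.

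Uridine was the most common crosslinked nucleotide. It stood at 72.4% (71.1 to 73.7) of the 5′UTR sites in replicate 1 and 83.5% (81.4 to 85.5) in replicate 2, or 78.0% ± 7.87 (SD, n = 2). The 3′UTR sites had 73.6% and 84.6% and the CDS sites 68.8% and 83.6%, so the replicates differed by more than the regions did. Over all 5′UTR sites cytidine followed with 14.4%, then guanosine with 7.13% and adenosine with 6.13%. Weighted by cDNAs, uridine reached 81.7%.

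The sequence around 5′UTR sites had more cytidine and less adenosine than that around 3′UTR sites in both replicates. In the 31 nt centred on a site, uridine took 44.6% in replicate 1 and 52.8% in replicate 2 for 5′UTR sites and 44.8% and 49.6% for 3′UTR sites. Cytidine took 21.9% and 18.8% against 16.1% and 14.3%, and adenosine 17.8% and 15.6% against 24.4% and 23.3%, with the values of the regions not overlapping between replicates. These differences were not tested. The uncrosslinked sequence differed in the same direction: all positions of the 5′UTRs with a site held 27.3% cytidine and 20.5% adenosine, and the 3′UTRs of the same transcripts held 20.5% and 27.3%. CDS sites had less uridine around them, with 34.7% and 40.2%.

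**Figure D4:**
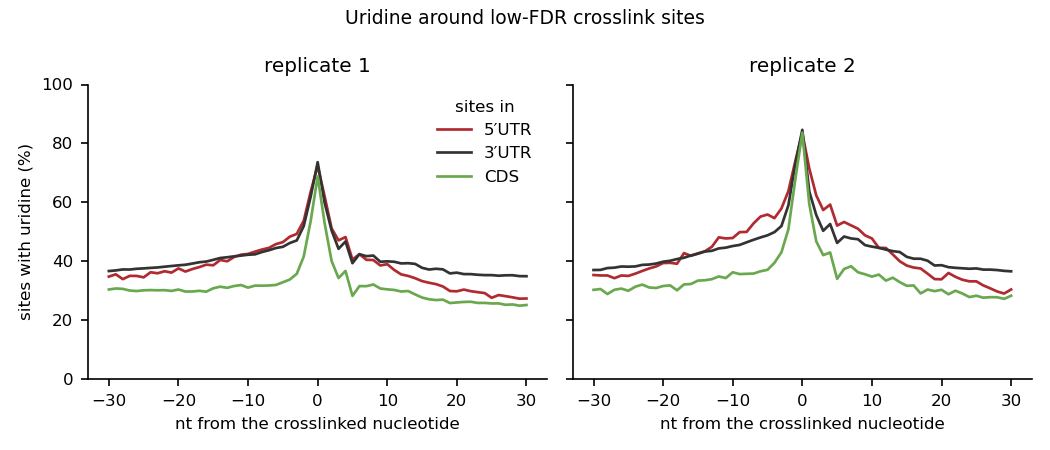
Percentage of low-FDR sites with a uridine at each position from 30 nt before to 30 nt after the crosslinked nucleotide, in 5′UTRs, 3′UTRs and CDS, for each replicate. All lines peak at the crosslinked nucleotide, for 5′UTR sites at 72.4% and 83.5%, and the CDS line lies lowest on both sides.

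Against their own 5′UTRs the sites lay in uridine-rich stretches. Averaged over every one of 288751 positions of the 5′UTRs with a site, a 31-nt window held 24.99% uridine. Of 271 genes with at least 5 sites, 261 had more uridine around their sites than over their whole 5′UTR, with a median excess of 16.2 percentage points. The same held in 219 of 227 genes in replicate 1 and in 87 of 87 in replicate 2. The exceptions in the pooled sites were Derl1, Eif5a, Fam111a, Ifi209, Srek1, Pou2af1, Pfn1 and the histone genes Hist1h1c, Hist1h4m and Hist1h4n. Pfn1 had uridine at 16.7% of its 18 sites. Uridine made up 6.45% of the nucleotides in the 31-nt windows around them, against 9.09% in windows over its whole 5′UTR.

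The word UUUUU was the most enriched of all 5-nt words in both replicates. It occurred in the 31-nt window of 44.7% of sites in replicate 1 and 62.3% in replicate 2, and in 8.24% of windows over all positions, which gave ratios of 5.42 and 7.56. UCUUU ranked second in both, with ratios of 5.10 and 7.13, and the next ranks were again held by words of uridines with a cytidine or an adenosine. Among the 936 words ranked in replicate 1, the rarest in relation to the same 5′UTRs was ACCGC, with a ratio of 0.106. In replicate 2 only 917 words were ranked, and the lowest of these was AGCCU, with a ratio of 0.0201. Words left unranked in replicate 2 may have been rarer still. Windows of neighbouring sites overlap, so these ratios are descriptions of the sequences and carry no error.

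The cDNAs lay nearer to the start codon than to the cap. The median cDNA was 225 nt from the transcript start in replicate 1 and 217.5 nt in replicate 2, and 123 nt and 117 nt from the start codon, on 5′UTRs of a median 433 and 467 nt. Relative to the length of the 5′UTR, the median cDNA lay 67.4% of the way to the start codon in replicate 1 and 65.1% in replicate 2. The stretch of 21 to 50 nt before the start codon held 18.9% (18.1 to 19.7) and 24.2% (22.5 to 26.0) of the cDNAs but 7.08% of the 5′UTR length, ratios of 2.67 and 3.42. The 20 nt next to the start codon held 10.5% and 5.93%, against 4.70% of length, and positions over 500 nt away held 8.24% and 7.76%, against 24.0%. Histone genes, with their short 5′UTRs, supplied 1633 of the 3666 pooled cDNAs within 50 nt of the start codon. The ratios to length were not computed without them.

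**Figure D5:**
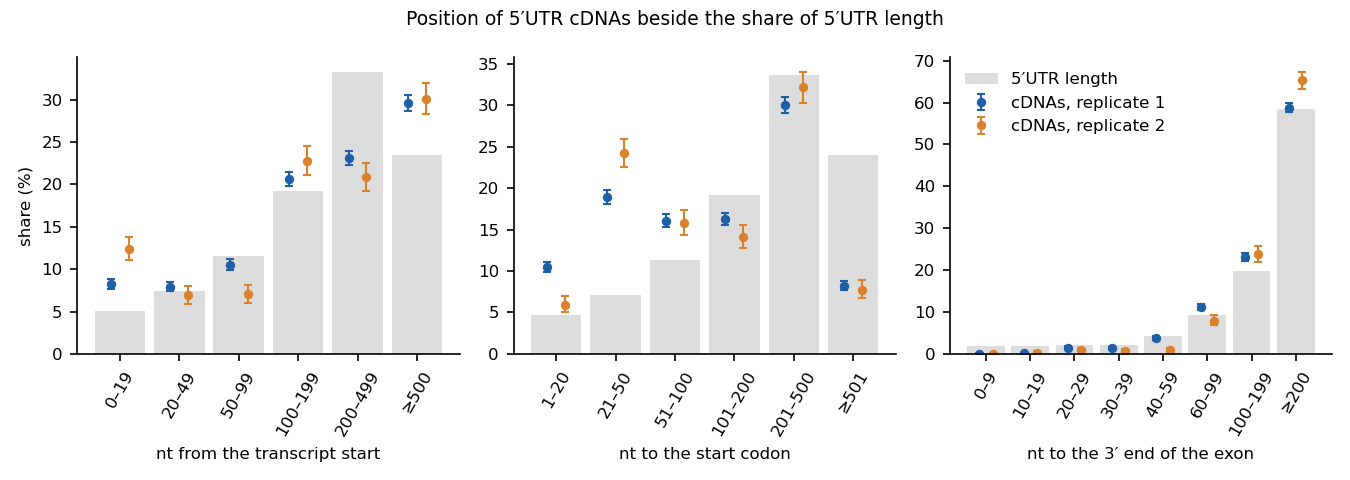
Share of 5′UTR cDNAs by distance from the transcript start, to the start codon and to the 3′ end of the exon (points, replicates 1 and 2, with exact 95% intervals) beside the share of 5′UTR length (grey bars). Both replicates exceed the bar at 21 to 50 nt from the start codon, with 18.9% and 24.2% against 7.08%, and fall below it in the last 20 nt of an exon.

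Near the transcript start the histone genes made up much of the signal. The first 20 nt held 8.23% (7.68 to 8.81) of the cDNAs in replicate 1 and 12.4% (11.1 to 13.7) in replicate 2. Within 50 nt of the start lay 16.6% of pooled cDNAs, and 7.44% without the histone genes. The first 20 nt and the next 30 nt made up 5.05% and 7.41% of the 5′UTR length. The share within 50 nt of the start codon was 29.3% with and 18.7% without them. A position next to an exon end was almost empty: on 5′UTR exons followed by another exon, the last 10 nt held 8 pooled cDNAs (0.0751%) and the 10 nt before them 22 (0.206%), against 1.84% and 1.94% of the length. At 40 to 59 nt the share was 3.79% in replicate 1 and 0.893% in replicate 2, against 4.38% of the length, and at 60 to 99 nt it was 11.3% and 7.94%, against 9.33%. Reads across a splice junction have to be mapped in pieces. The study's methods give mapping to the genome with Bowtie and do not mention such reads. Their part in the gap was not tested.

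Many 5′UTR sites were annotated in several ways. Annotated introns of other protein-coding transcripts overlapped 40.3% of the sites, which had 42.2% of the pooled cDNAs, 40.7% of those in replicate 1 and 48.9% in replicate 2. That was the case for 100% of the cDNAs of Ptp4a3, Gpbp1 and Matr3, for 98.6% in Mbnl1, 96.3% in Pabpc1, 93.2% in Cd22 and 91.3% in BC005537, and for 0% in Tubb5, Grcc10, Ptp4a2, Scd2, Ebf1 and the histone genes named above. Among other genes named here, the share was 100% in Rpl10, Rps2, Cdkn1b, Ccnd2 and Atf4 and 95.3% in Eif4g2. It was 0% in Rps16, Rps24, Rack1, Eef1b2, Vegfa and Bcl2. Where such introns overlap the sites, the spliced and the unspliced RNA cannot be told apart from the sites alone. The crosslinked nucleotide was uridine at 72.8% (71.0 to 74.6) of sites in such introns and at 72.0% (70.5 to 73.5) of the others. An exon of a non-coding transcript overlapped 41.8% of the sites. Only 14 sites lay opposite a CDS or 3′UTR of the other strand. Genes with a site had longer 5′UTRs than genes in general, with a median of 305 nt on the transcripts used, against 165 nt over 20915 protein-coding genes. The transcripts used were chosen among those whose 5′UTR covers a site, and a longer 5′UTR has more positions to hold one. These medians were therefore not drawn alike.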

How the data were processed

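iCLIP was measured in 2 samples. The authors used the iCount pipeline: reads were assigned by 3 known barcode bases, PCR duplicates removed by 4 random bases, and reads mapped to mm9 with Bowtie (version not given in the sources used here). The values deposited by the authors are counts of unique cDNAs at each crosslinked nucleotide, signed by strand and not scaled to depth. The authors kept sites with FDR under 0.05 from 100 permutations and a 15-nt neighbourhood, per replicate and on the sum, and lifted the pooled sites to mm10 (GRCm38). Replicate counts were joined through the pooled mm9 list, in the same row order, which covered 98.3% and 98.7% of the sites of replicates 1 and 2. At all 58002 sites called in both, the replicates added up to the pooled count. Depth before FDR filtering is known for the sum only (1582633 cDNAs).

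Sites were annotated with GENCODE M21. Distances used 1 transcript per site, preferring known starts, then APPRIS principal, CCDS and basic tags, support level and length. The first transcript nucleotide is at distance 0 and the nucleotide before the start codon at distance 1. Clusters joined sites of a gene at most 15 nt apart. Composition used windows of 31 nt, and 5-nt words present in at least 1% of all windows. Named genes were the 15 with the most pooled cDNAs, the 10 with the most among those with at least 3 cDNAs in each replicate, those with the 12 strongest nucleotides (at most 2 a gene), 11 genes given by name and up to 4 of each of 17 gene lists. The members, lists and rules were chosen with earlier results of these data known. A gene that this rule names is not reported here. Other genes named were chosen after their values were seen. No test was run: there was 1 group of 2 replicates, and differences between regions within the replicates are given as values. Shares carry exact Clopper-Pearson 95% intervals. The annotation code was tested on simulated transcripts. The tools were pysam 0.24.0, scipy 1.17.1, pandas 2.3.3, numpy 2.4.6 and matplotlib 3.10.9 under Python 3.11.15.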

Additional observations from a re-analysis of the deposited data

How the results depend on the processing

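With at least 2 pooled cDNAs at a site, 2112 sites in 409 genes remained, with 1.46% of the cDNAs at such sites, uridine at 84.5% of them, a median of 218 nt from the transcript start, and 19.3% and 31.7% of the cDNAs within 50 nt of the transcript start and of the start codon. With at least 5, these values were 448 sites, 88 genes, 1.52%, 90.8%, 189 nt, 23.1% and 35.1%, with uridine at 52.4% of the 31-nt window. Leaving out sites in an intron of another protein-coding transcript gave 3544 sites, 0.833% of the cDNAs, 158 nt, 25.2% and 41.4%. The share of cDNAs was 1.42% on basic-tag transcripts and 1.56% where overlaps with CDS or 3′UTR were kept. Without BC005537 it was 1.36%, with 198 nt and 30.9% near the start codon. Window lengths of 11 and 61 nt held 52.9% and 38.7% uridine, and uridine reached 81.7% weighted by cDNAs. With the smallest distance over all transcripts the median was 159 nt and 21.5% lay near the transcript start. Within 20 nt of it lay 8.74%, and within 100 nt of the start codon 45.4%.

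The alternatives without the histone genes and without Pabpc1 were chosen after seeing the data. Without the Hist1 to Hist4 genes the share was 1.25%, the median 274 nt, and 7.44% and 18.7% lay near the transcript start and the start codon. Without Pabpc1 these were 1.37% and 252 nt, with 30.9% near the start codon. Leaving out a replicate gave ranges of 1.46% to 1.47% for the share, 1305 to 4789 sites, 184 to 577 genes, 72.4% to 83.5% for uridine at the site, 44.6% to 52.8% around it, 217.5 to 225 nt, and 16.2% to 19.3% and 29.4% to 30.1% near the transcript start and the start codon. In every other setting tried, shares, medians and contents moved by less than 1 SD of the replicates and counts by less than 1.5 times. No paired analysis was possible because there was 1 group. The shallower replicate 2 and the single cDNA at most sites limit what can be said of a single nucleotide or a gene with few cDNAs.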
